A study of Bos taurus with 3 samples.

Results

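The transcripts of 52 DNA repair genes were measured in BFF116, cultured fibroblasts of a bovine fetus whose nuclei are used to make cloned embryos by nuclear transfer. The genes were chosen by name, and each of the 52 symbols has a row among the 31903 genes of the deposited count table. They were sorted by textbook role into 7 groups: 15 genes of recombination, 6 of the Fanconi anaemia pathway, 5 of damage signalling, 5 of end joining, 8 of base excision, 10 of nucleotide excision and 3 of mismatch repair. The series has 1 group of 3 libraries, described as biological replicates, and each was made from 70000 cells after 48 h without serum, a step that synchronizes the cell cycle. No cells grown in serum, no cells with damaged DNA and no other cell type were measured, so levels are described and no treatment is compared. All 3 libraries are labelled BFF116, so they do not show the spread between animals. Whether they came from separate cultures is not stated, so p-values measure only the spread between these libraries, part of which may be technical.

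DNA repair is divided among pathways that handle different lesions. Breaks of both strands are sealed directly by end joining, which works throughout the cell cycle, or are copied from the sister chromatid by homologous recombination, which needs a replicated chromosome and is mainly used in S and G2 phase. The Fanconi anaemia proteins unhook crosslinks between strands and pass the break to recombination. Excision repair removes a damaged base or a short stretch around a bulky lesion, and mismatch repair removes errors left by the replicating polymerases. In nuclear transfer the donor genome must be replicated soon after it enters the oocyte, whose own proteins then do much of the repair.

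Of 8608350, 4842331 and 7122651 gene reads in replicates 1 to 3, the 52 genes held 12324, 6652 and 8257. Levels are in CPM, read counts scaled to the library size after TMM normalization, and a mean is given ± SD over the 3 libraries (n = 3). Where no read was seen, a level of up to 3 reads remains possible, which equals 0.356, 0.605 and 0.422 CPM. Transcript lengths were not used here, and long transcripts yield more reads, so an order of genes by CPM is an order of reads and not of transcript numbers. The CPM order served only to pick which further genes to name. All comparisons below that involve more than 1 gene rest on how the same genes stood in different libraries, where length cancels, unless stated otherwise. A gene is called measured below where all 3 libraries had at least 1 CPM. All 13 of 13 fibroblast markers were measured, while 0 of 6 epithelial and 0 of 5 skeletal muscle markers were, and 2 of 4 endothelial, 2 of 5 leukocyte and 3 of 4 neural markers were. The summed level of these 5 lists lay between 0.475 and 23.2 CPM, and EPCAM, KDR, PTPRC, CD14, MYOD1, PAX7, DES and SOX10 had 0 reads in every library. The highest means in these lists were those of the neural markers STMN2 (10.6 CPM) and MAP2 (5.70 CPM) and the endothelial marker TEK (5.93 CPM).

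Of the 52 repair genes, 47 were measured in this sense, as were 34.6% of all genes listed and 61.2% of those with a read. The 5 exceptions were RAD54L, XRCC2, XRCC3, OGG1 and ERCC2. At least 10 reads in every library were found for 45 genes, which also leaves out BARD1 and XRCC1, and only these 45 entered the test of spread. The median level over all 52 genes was 16.8 CPM, and over the 45 it was 20.2 CPM beside 23.1 CPM for the 10434 genes tested. The plot of levels by pathway gives each gene in each library.

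**Figure D1:**
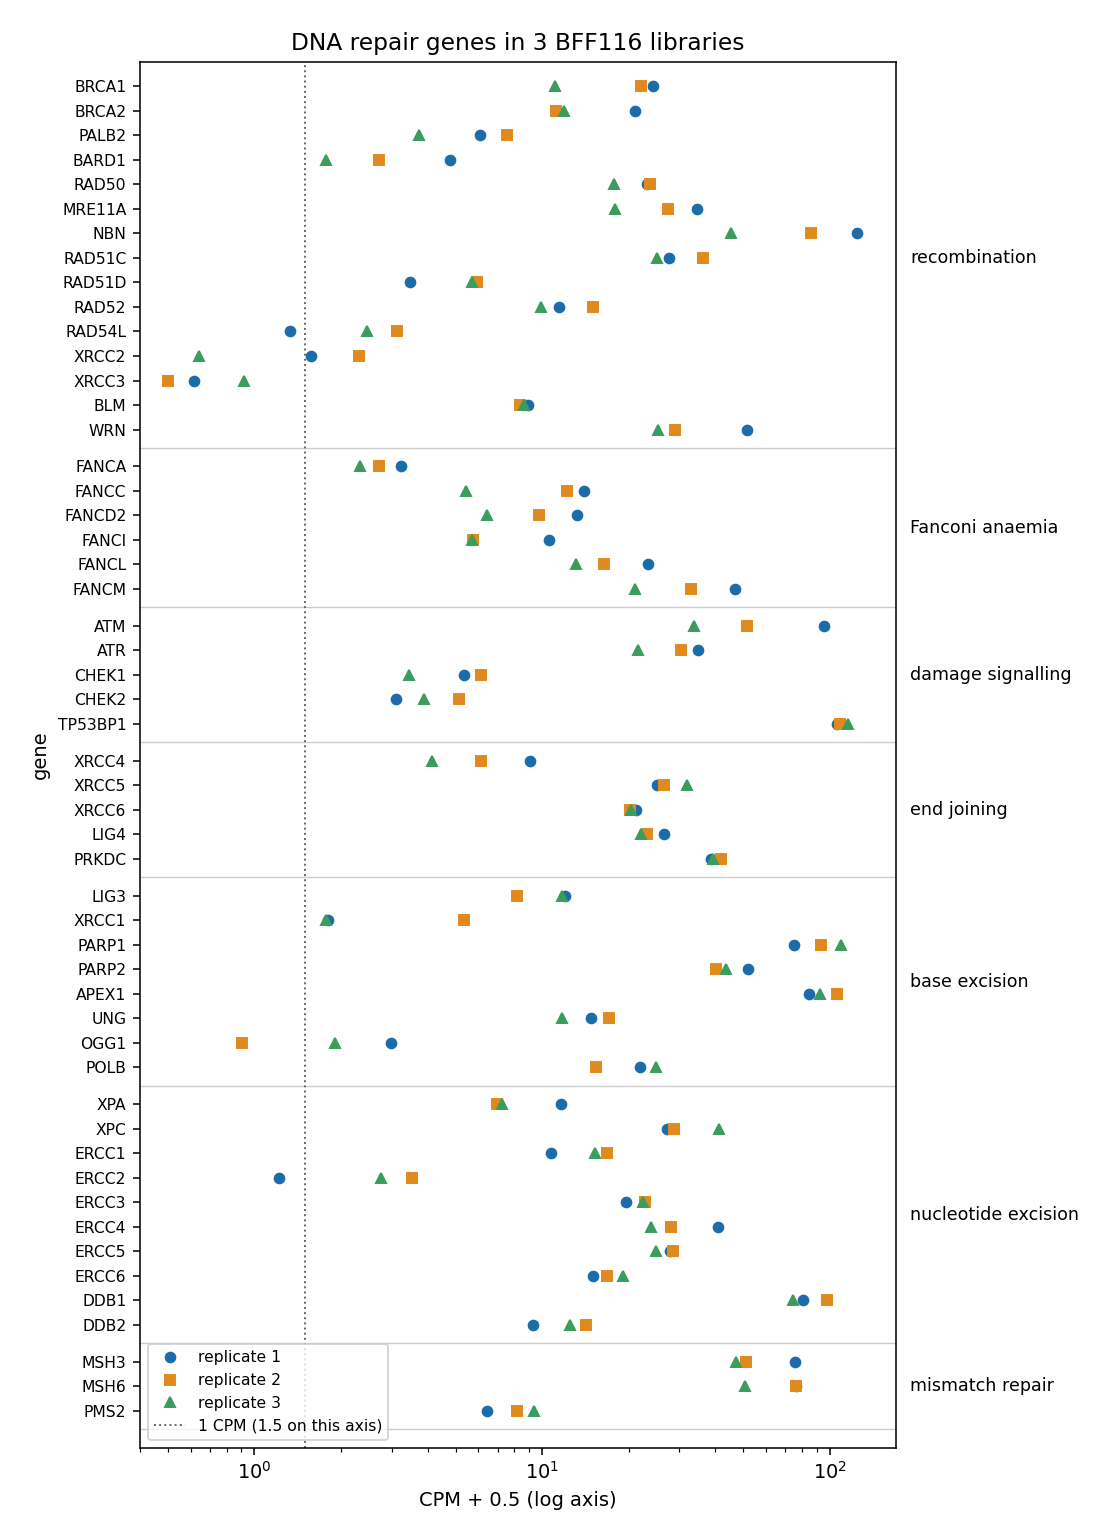
Level of each of the 52 repair genes in the 3 libraries, as CPM + 0.5 on a log axis, with 1 symbol per library and genes grouped by pathway. The dotted line marks 1 CPM, and 47 genes lie at or to the right of it in all 3 libraries.

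Recombination begins with the resection of broken ends by the complex of MRE11, RAD50 and NBN. NBN, which brings the complex to damage marks and activates ATM, stood at 124, 85.4 and 44.9 CPM in replicates 1 to 3. MRE11A, the nuclease, stood at 34.0, 27.0 and 17.4 CPM, and RAD50, the tether that holds the ends together, at 22.6, 23.2 and 17.3 CPM. All 3 subunits were lowest in replicate 3, and the distance between libraries was widest for NBN, with a ratio of replicate 1 over replicate 3 of 2.76 (exact 95% binomial interval 2.43 to 3.14). The same ratio was 1.95 (1.57 to 2.42) for MRE11A and 1.30 (1.03 to 1.65) for RAD50. These intervals cover the counting error of reads only, and they compare those 2 libraries. Several reads can stem from copies of 1 molecule, which the intervals do not cover. Across 11953 genes, replicates 1 and 3 differed by far more than counting error, with a chi-square per degree of freedom of 40.4. All intervals of this ratio given here are therefore too narrow for the spread between libraries.

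The genes that load and assist the strand exchange recombinase were next. BRCA1, which promotes resection and forms a ubiquitin ligase with BARD1, stood at 23.8, 21.6 and 10.6 CPM. BARD1 had 36, 11 and 9 reads, or 4.28, 2.22 and 1.27 CPM, so both partners were lowest in replicate 3. BRCA2, which delivers the recombinase to single strands, stood at 20.5, 10.7 and 11.4 CPM and was highest in replicate 1. PALB2, the bridge between BRCA1 and BRCA2, had 47, 35 and 23 reads, or 5.58, 7.05 and 3.24 CPM. The replicate 1 over replicate 3 ratio was 2.25 (1.72 to 2.98) for BRCA1, 3.38 (1.60 to 7.97) for BARD1, 1.80 (1.38 to 2.38) for BRCA2 and 1.73 (1.03 to 2.98) for PALB2.

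Among the paralogs of the recombinase, RAD51C was the 1 with more than 100 reads in each library, at 27.2, 35.7 and 24.6 CPM, and RAD51D had 25, 27 and 37 reads. XRCC2 and XRCC3, which act in the 2 paralog complexes beside them, were close to the limit of detection. XRCC2 had 9, 9 and 1 reads, a pooled level of 0.927 CPM (exact 95% Poisson interval 0.558 to 1.45). XRCC3 had 1, 0 and 3 reads, a pooled level of 0.195 CPM (0.0532 to 0.50), so it was not detected above the limit in any library. RAD52, which anneals complementary strands, stood at 10.9, 14.5 and 9.43 CPM. RAD54L, the motor protein that remodels the exchange intermediate, had 7, 13 and 14 reads. Of these 6 genes, RAD51D, RAD54L and XRCC3 did not have their lowest level in replicate 3.

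Both RecQ helicases of the list were present, and they differed in how steady they were. BLM, which dissolves crossed intermediates, stood at 8.43, 7.86 and 8.16 CPM, a mean of 8.15 ± 0.287. WRN, which unwinds unusual structures at forks and telomeres, stood at 51.2, 28.4 and 24.8 CPM. WRN was 2.07 times as high in replicate 1 as in replicate 3 (1.73 to 2.48), and for BLM this ratio was 1.03 (0.720 to 1.49).

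All 6 Fanconi anaemia genes were measured, and each was highest in replicate 1, as were 39.3% of all genes tested, and lowest in replicate 3, with both holding for 25.5% of all genes tested. FANCM, the translocase that finds stalled forks, stood at 46.2, 32.4 and 20.5 CPM. FANCA and FANCC belong to the core ligase complex, and they stood at 2.73, 2.22 and 1.83 CPM and at 13.5, 11.7 and 4.92 CPM. FANCL, the catalytic subunit of that complex, stood at 22.8, 15.9 and 12.7 CPM. Its substrates, the clamp proteins FANCD2 and FANCI, stood at 12.7, 9.27 and 5.91 CPM and at 10.1, 5.24 and 5.21 CPM. The ratio of replicate 1 over replicate 3 ran from 1.49 for FANCA, whose interval of 0.726 to 3.21 includes 1, to 2.75 (1.87 to 4.14) for FANCC, and the interval lay above 1 for the other 5. These intervals again cover counting error only, and none of the 6 genes was called in the test of spread below. FANCI differed little between replicates 2 and 3.

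The damage signalling genes did not share a direction between libraries. ATM, the kinase that answers double-strand breaks, stood at 95.4, 51.0 and 33.2 CPM, and its ratio of 2.87 between replicates 1 and 3 (2.48 to 3.34) was the highest among the 45 genes with 10 or more reads in every library. ATR, the kinase that answers exposed single strands at stalled forks, stood at 34.4, 30.0 and 21.0 CPM. Their effector kinases had few reads: CHEK1, which acts below ATR, had 41, 28 and 21 reads, and CHEK2, which acts below ATM, had 22, 23 and 24. TP53BP1, which shields broken ends from resection and so favours end joining, stood at 105, 108 and 116 CPM, a mean of 110 ± 5.40, and was lowest in replicate 1, as were 40.3% of all genes tested. Its ratio of replicate 1 over replicate 3 was 0.910, with an interval of 0.827 to 1.00.

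All 5 end joining genes were measured, and 4 of them lay close together in the 3 libraries. XRCC6 and XRCC5 encode the Ku heterodimer that slides onto broken ends, and they stood at 20.7, 19.7 and 19.8 CPM and at 24.6, 26.0 and 31.4 CPM. PRKDC, the kinase that Ku recruits, stood at 38.1, 41.3 and 38.7 CPM, a mean of 39.4 ± 1.70. LIG4, the ligase that seals the ends, stood at 26.1, 22.6 and 21.5 CPM. These 4 genes had coefficients of variation of 2.52% (XRCC6), 4.31% (PRKDC), 10.3% (LIG4) and 13.1% (XRCC5), below the 22.4% that was the median over all genes tested. XRCC4, the scaffold that stabilizes LIG4, was the exception at 8.55, 5.64 and 3.66 CPM, from 72, 28 and 26 reads, and its replicate 1 over replicate 3 ratio was 2.34 (1.47 to 3.81).

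Base excision repair starts with glycosylases that cut out a damaged base. UNG, which removes uracil, stood at 14.3, 16.5 and 11.3 CPM. OGG1, which removes oxidized guanine, had 21, 2 and 10 reads, a pooled level of 1.61 CPM (exact 95% Poisson interval 1.11 to 2.26). APEX1, which cuts the backbone at the site the glycosylase leaves, stood at 84.0, 106 and 92.0 CPM. POLB, the polymerase that fills the gap, stood at 21.4, 14.9 and 24.3 CPM and was lowest in replicate 2. LIG3, which seals the nick, was also lowest there at 11.5, 7.66 and 11.3 CPM, while its scaffold XRCC1 had 11, 24 and 9 reads and was highest in replicate 2.

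PARP1 and PARP2 detect strand breaks and mark them with chains of ADP-ribose. PARP1 stood at 74.8, 92.9 and 109 CPM and was highest in replicate 3, with a ratio of replicate 1 over replicate 3 of 0.685 (0.616 to 0.762). PARP2 stood at 51.4, 39.7 and 43.1 CPM and was highest in replicate 1, with a ratio of 1.19 (1.03 to 1.39). The log2 ratio of PARP1 over PARP2 was 0.54, 1.22 and 1.33 in replicates 1 to 3.

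Nucleotide excision repair had 9 of 10 genes measured. Lesions are found by XPC, which stood at 26.6, 28.2 and 40.8 CPM and was highest in replicate 3. The other sensor pairs DDB1, which is also an adaptor of cullin ubiquitin ligases, with DDB2, and they stood at 80.5, 97.1 and 74.3 CPM and at 8.79, 13.7 and 12.0 CPM. ERCC6, which acts where a polymerase has stalled on a transcribed strand, stood at 14.5, 16.3 and 18.6 CPM. XPA, which verifies the lesion and gathers the other factors, stood at 11.2, 6.45 and 6.75 CPM.

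The helicases of TFIIH open the strands, and nucleases then cut on either side. ERCC3 stood at 19.0, 22.4 and 22.0 CPM, and ERCC2, the other helicase, had 6, 15 and 16 reads, a pooled level of 1.81 CPM (exact 95% Poisson interval 1.27 to 2.49). ERCC5, which cuts on the 3′ side, stood at 27.4, 28.0 and 24.3 CPM. ERCC1 and ERCC4 form the nuclease that cuts on the 5′ side, and they differed in where replicate 1 stood. ERCC4, the catalytic subunit, was highest in replicate 1 at 40.5, 27.6 and 23.5 CPM, and ERCC1 was lowest there at 10.2, 16.3 and 14.8 CPM. Their ratios of replicate 1 over replicate 3 were 1.72 (1.43 to 2.09) and 0.691 (0.514 to 0.928).

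Mismatch repair was represented by 3 genes, all measured. MSH6 serves the recognition of base mismatches and MSH3 that of longer loops. MSH6 stood at 75.9, 75.8 and 50.2 CPM, and MSH3 stood at 75.2, 50.6 and 46.6 CPM. PMS2, a nuclease that nicks the strand to be corrected, was lowest in replicate 1 at 5.94, 7.66 and 8.86 CPM. Both MSH genes were lowest in replicate 3, with ratios of replicate 1 over replicate 3 of 1.51 (1.33 to 1.72) for MSH6 and 1.61 (1.41 to 1.85) for MSH3, and the ratio for PMS2 was 0.670 (0.453 to 0.987).

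The pathways were then compared by how their genes stood in each library, with replicate 3 singled out after the values were seen. In bulk RNA, fewer cells that express a gene and less RNA per cell cannot be told apart. Of the 17 recombination and Fanconi anaemia genes with 10 or more reads in every library, 14 were lowest in replicate 3, or 82.4%, beside 35.4% of all 10434 genes tested. The 3 others were RAD51D, BLM and BRCA2. Of the 15 excision genes with that many reads, 4 were lowest in replicate 3, and among the end joining genes it was 2 of 5, shares near or below that of all genes. For damage signalling it was 3 of 5 and for mismatch repair 2 of 3. Counting all 21 recombination and Fanconi anaemia genes, reads under 10 included, 16 were lowest in replicate 3. The median ratio of replicate 1 over replicate 3 was 1.73 for recombination, 2.04 for Fanconi anaemia, 1.64 for damage signalling and 1.51 for mismatch repair, and it was 1.04 for end joining, 0.968 for base excision and 0.866 for nucleotide excision, beside 0.991 over all genes tested. A ratio of 2 or more was found for 8 of the 45 genes (NBN, BRCA1, WRN, FANCC, FANCD2, FANCM, ATM and XRCC4), beside 9.12% of all genes, and the reverse ratio reached 2 for 0 of the 45, beside 9.06% of all genes. Replicates are not conditions and have no order, genes are no replicates, and no test of these counts was made.

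**Figure D2:**
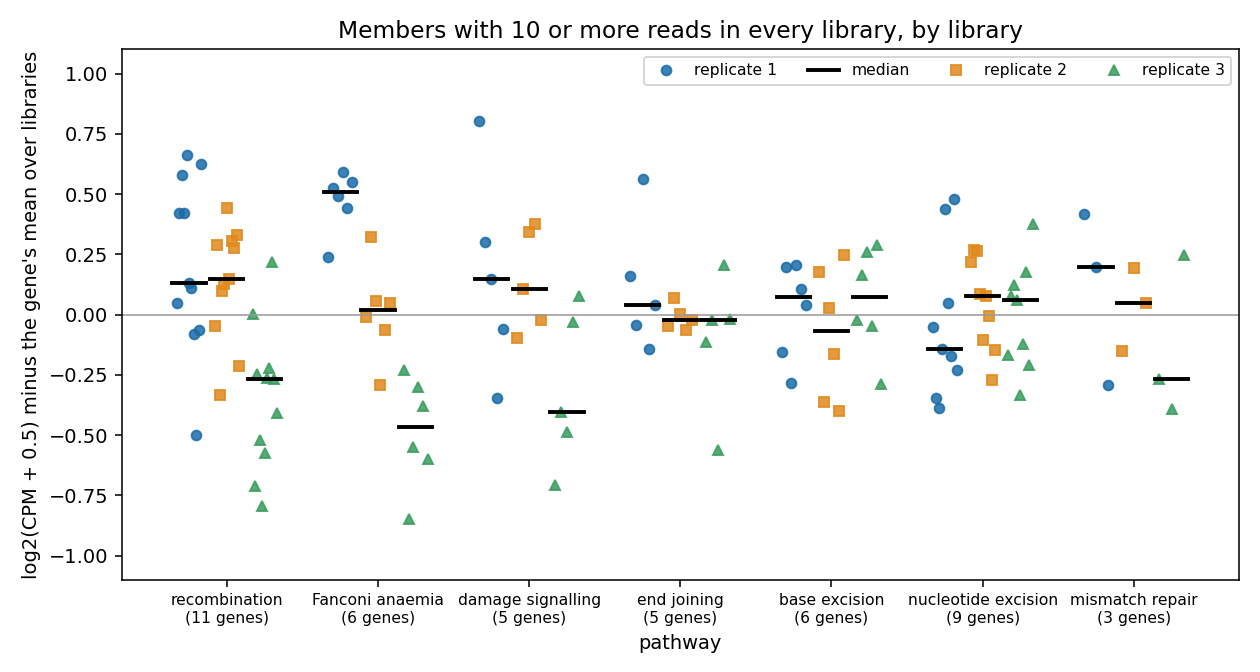
Each point is 1 of the 45 genes with 10 or more reads in every library, plotted as its log2(CPM + 0.5) in a library minus its mean over the 3 libraries, by pathway, and bars are medians. The 6 Fanconi anaemia genes lie above 0 in replicate 1 and below it in replicate 3, with medians of 0.51 and -0.47, while the end joining medians are 0.04, -0.02 and -0.02.

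The differences between libraries were set against the spread of all genes. Across the 10434 genes the common biological coefficient of variation in edgeR was 27.3%. A negative binomial Pearson statistic at edgeR's trended dispersion, with Benjamini-Hochberg adjustment, called 0 of the 45 repair genes more variable between replicates than genes of their level, and it called 2 genes in all, or 0.0192% (CLK1 and LOC101909968, named after their values were seen). The trend was estimated from the same 3 libraries, so a gene that was not called is not shown to be as steady as others of its level. At an unadjusted p under 0.05 this edgeR statistic marked 2 repair genes, ATM (adjusted p = 0.543) and NBN (adjusted p = 0.759), beside 5.24% of all genes. With DESeq2's trended dispersion in the same statistic the counts were also 0 and 2. The median coefficient of variation was 23.1% over the 45 genes and 22.4% over all genes tested. By pathway the median was 37.7% for Fanconi anaemia, 31.7% for recombination, 28.8% for damage signalling, 22.0% for mismatch repair, 21.7% for nucleotide excision, 18.7% for base excision and 10.3% for end joining. The further genes of these pathways, described below, did not repeat this order. Over those with 10 or more reads in every library, the medians were 23.5% for Fanconi anaemia, 26.6% for recombination and 18.4% for damage signalling. They were 40.0% for mismatch repair, 24.1% for nucleotide excision, 18.5% for base excision and 36.3% for end joining.

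**Figure D3:**
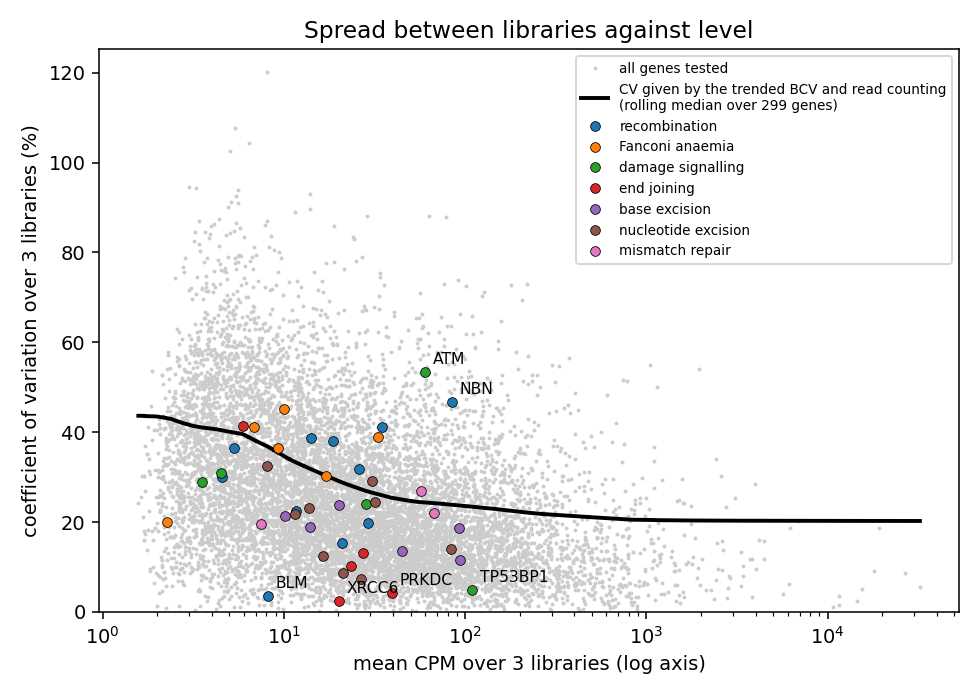
Coefficient of variation over the 3 libraries against mean CPM (log axis), with all 10434 genes tested in grey, the 45 repair genes coloured by pathway, and a line for the spread given by edgeR's trended dispersion and read counting (a rolling median over 299 genes). ATM and NBN lie highest above the line, and BLM, XRCC6, PRKDC and TP53BP1 are under 5%.

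As a whole, the pathways' median levels can be set side by side only with their lengths included. On the log2(CPM + 0.5) scale the end joining median was above the recombination median by 1.13, 1.05 and 1.15 in replicates 1 to 3, a mean of 1.11 ± 0.06. The excision median was above it by 0.58, 0.60 and 1.06, a mean of 0.75 ± 0.27, and the mismatch repair median by 2.73, 2.19 and 2.25, a mean of 2.39 ± 0.30. Each difference was of 1 sign in all 3 libraries, and an exact sign-flip permutation test of 3 libraries cannot give a p below 0.25. Leaving out the genes with under 10 reads in some library, 4 of which are recombination genes, brought the first 2 to 0.36 ± 0.46 and 0.33 ± 0.59, within the spread between libraries.

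Partners in a complex or a step were compared as ratios within each library, over 23 pairs. The ratio was of 1 sign in every library for 20 pairs, where the sign also carries the 2 lengths, and the median SD of the log2 ratio was 0.48. No share over other pairs of genes was computed. Any 2 genes far apart in CPM can keep 1 sign, so the count of 20 does not show that partners are steady. The steadiest was the Ku pair, XRCC5 over XRCC6, with log2 ratios of 0.25, 0.39 and 0.65. DDB1 over DDB2 gave 3.12, 2.78 and 2.59, and MSH6 over MSH3 gave 0.01, 0.58 and 0.11. BRCA1 over BARD1 gave 2.34, 3.02 and 2.65, and FANCD2 over FANCI gave 0.32, 0.77 and 0.17. BRCA1 over TP53BP1, which act against each other in the choice between recombination and end joining, gave -2.12, -2.30 and -3.39, a mean of -2.61 ± 0.69 and lowest in replicate 3.

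The 3 pairs without a common sign were PRKDC over ATM, CHEK1 over CHEK2 and ERCC5 over ERCC4. PRKDC and ATM are related kinases that act in end joining and in signalling, and their log2 ratio was -1.31, -0.30 and 0.22. PRKDC itself hardly differed between libraries, so the 1.53 between the highest and lowest ratio followed the level of ATM. For CHEK1 over CHEK2 it was 0.79, 0.26 and -0.17, from at most 41 reads each. For ERCC5 over ERCC4 it was -0.55, 0.02 and 0.05. No pair could reach a p below 0.25 in the exact sign-flip permutation test.

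**Figure D4:**
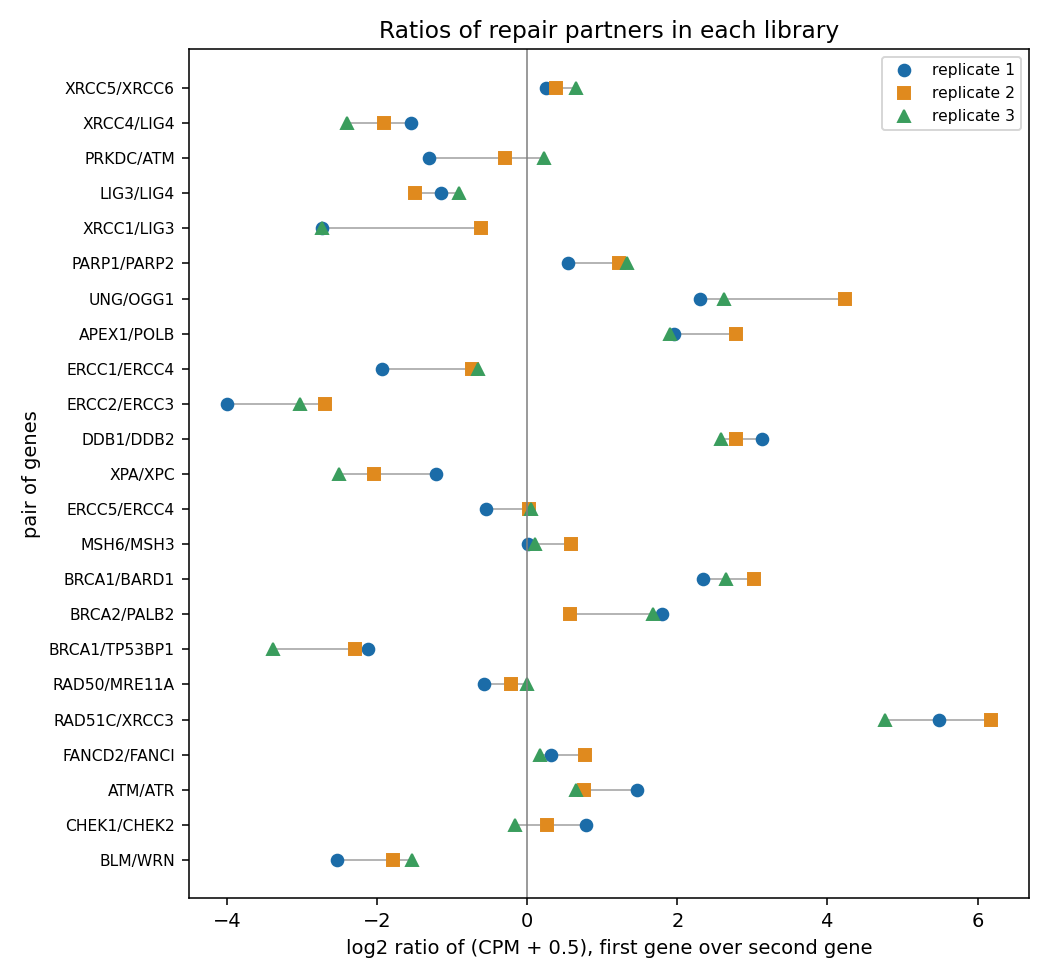
The log2 ratio of (CPM + 0.5) for 23 pairs of repair genes, first gene over second, with 1 symbol per library and a line from the lowest to the highest. The ratio is of 1 sign in all 3 libraries for 20 pairs, a count that also carries how far apart the 2 levels lie. The widest distances are those of XRCC1 over LIG3 and UNG over OGG1, where XRCC1 had at most 24 reads and OGG1 at most 21.

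Other genes of the same pathways, from a list of 86 of which 81 were in the table, gave the setting of these values. Measured were 19 of 22 recombination genes, 4 of 5 Fanconi anaemia, 10 of 12 signalling, 8 of 9 end joining, 11 of 15 base excision, 13 of 14 nucleotide excision and 4 of 4 mismatch repair genes. The genes named here have the most CPM in their list, which also carries their lengths. In recombination they were RPA1 (89.5 ± 15.0), which coats single strands, SHFM1 (79.5 ± 8.86), a small partner of BRCA2, and RBBP8 (34.0 ± 8.04), which starts resection. In the Fanconi anaemia list they were USP1 (58.3 ± 17.8), which removes ubiquitin from FANCD2, FAN1 (31.2 ± 3.33), a nuclease, and FANCG (22.2 ± 4.50). In signalling they included RIF1 (113 ± 50.6), the effector of TP53BP1, and RNF8 (71.0 ± 6.91), a ligase that marks chromatin at breaks. End joining had NHEJ1 (20.1 ± 3.94), TDP2 (18.1 ± 7.20) and APLF (10.7 ± 3.52). Base excision had TDG (42.3 ± 6.09), PARG (32.6 ± 2.48) and PARP3 (15.0 ± 4.17). Nucleotide excision had RAD23B (221 ± 81.4), the partner of XPC, CETN2 (81.7 ± 12.6) and MNAT1 (52.4 ± 6.69), and mismatch repair had MLH3 (24.4 ± 10.7) and PMS1 (20.0 ± 13.3).

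Several of these further genes were under 1 CPM in some library. EXO1, a nuclease of resection and mismatch repair, had 25, 5 and 5 reads, DNA2, another resection nuclease, had 25, 9 and 1, and RAD51AP1 had 5, 1 and 5. FEN1, the flap nuclease of long-patch base excision and of replication, had 0, 7 and 19 reads, and NEIL3, a glycosylase, had 31, 9 and 0. CLSPN, the adaptor that lets ATR activate CHEK1, had 3, 8 and 14 reads, and RAD9A, of the checkpoint clamp, had 4, 10 and 21. UVSSA had 2, 2 and 13 reads, FANCF 9, 4 and 4, SMUG1 10, 3 and 4, and NEIL1 4, 7 and 2. These counts differed between libraries in both directions, with NEIL3 and DNA2 highest in replicate 1 and FEN1, RAD9A and UVSSA highest in replicate 3.

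The low level in replicate 3 was not seen in most of the further genes of recombination and the Fanconi anaemia pathway. Of the 22 further genes of these 2 pathways with 10 or more reads in every library, 7 were lowest in replicate 3, or 31.8%, beside 35.4% of all genes, and their median ratio of replicate 1 over replicate 3 was 0.856. In the other pathways the further genes lowest in replicate 3 were 5 of 10 for signalling, 2 of 8 for end joining, 3 of 10 for base excision, 9 of 13 for nucleotide excision and 3 of 4 for mismatch repair. Single genes with wide distances were PMS1 (34.0, 18.5 and 7.46 CPM), RIF1 (167, 105 and 67.0 CPM) and RAD23B (278, 256 and 127 CPM).

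Genes of the cell cycle were set beside these values because many recombination genes are transcribed mainly in cycling cells. Of 15 S-phase genes 11 were measured, and those with the most CPM were MCM6 (96.7 ± 17.7), RRM1 (58.2 ± 5.85) and POLA1 (20.8 ± 3.95). MCM2, MCM5, CDC6 and CDT1, which license origins of replication, had at most 13 reads in any library. The other MCM genes of the list, which act in the same step, had more. MCM6 had 918, 519 and 543 reads and MCM7 had 87, 61 and 129. MCM3 had 25, 14 and 43 reads and MCM4 had 23, 16 and 19. The G2 and mitosis list had 11 of 11 measured, and those with the most CPM were CENPF (71.6 ± 12.2), TOP2A (46.3 ± 12.8) and MKI67 (46.1 ± 9.17). Of those with 10 or more reads in every library, 8 of 10 S-phase genes and 7 of 11 genes of G2 and mitosis were lowest in replicate 3, beside 35.4% of all genes tested. Their median ratios of replicate 1 over replicate 3 were 1.26 and 1.17, beside 0.991 over all genes tested. The summed level was 291, 281 and 219 CPM for the S-phase list and 264, 239 and 240 CPM for the other. Their part in the order of the recombination genes was not tested.

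The genomic neighbours of the repair genes were read from RefSeq (assembly ARS-UCD2.0), where 51 of the 52 symbols matched directly and MRE11A matched as a synonym of MRE11. An annotated gene overlapped 22 of the 52, and a protein-coding gene overlapped 13, among them KLC1 at XRCC3, KLC3 at ERCC2, CAMK1 at OGG1 and LRRC41 at RAD54L, 4 of the 5 genes that were under 1 CPM in some library. The rest were genes with more reads, such as APEX1 with OSGEP (mean of 93.9 CPM), MSH6 with FBXO11 (67.3 CPM) and FANCL with VRK2 (17.1 CPM). Overlap was taken over whole gene spans, introns included, and not over the exons used in counting. The strand setting of the counting is not given in the sources used here, and reads over more than 1 gene were 0.235 to 0.253% of each library's total, so reads lost or gained at these overlaps cannot be told apart from the genes' own levels. At some loci the repair gene lies next to a gene with which it is known to share a promoter region. ATM lies beside NPAT, a coactivator of histone genes, which stood at 40.5, 37.9 and 27.0 CPM and shared the order of ATM with a smaller distance. PRKDC lies beside the helicase gene MCM4, which stood at 2.73, 3.22 and 2.67 CPM.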

How the data were processed

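The series holds 3 RNA libraries of BFF116 cells. Per the labels' protocols, cDNA was made and amplified by a single-primer isothermal method, fragmented and sequenced as single reads of 100 bases. The submitters' processing notes name HTSeq 0.6.1, TopHat2 2.0.10 and bcl2fastq 2.18.0.12, and the build, the gene models and the strand option of the counting are not given in these sources. The values the authors deposited are raw read counts per gene, with 0 columns of other samples.

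The 5 summary rows that name no gene entered neither library sizes nor tests. Reads that the counting assigned to no feature were 59.2, 58.9 and 62.0% of a library, and those with multiple alignments 7.93, 7.52 and 7.99%. Without the gene models and strand option, reads outside genes cannot be told from reads within genes that were left unassigned. Counts were scaled with TMM factors of 0.978, 1.02 and 0.998 (edgeR 4.0.16, R 4.3.3) and log2 values used a pseudocount of 0.5. Pairs of libraries differed by more than counting noise, with a chi-square per degree of freedom of 11.3 to 40.4, so none was treated as a copy of another; this does not show that they are separate cultures. The levels per kilobase that had been planned were not computed, since transcript lengths were not used here, and CPM took their place.

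Spread between replicates was tested with a negative binomial Pearson statistic at edgeR's trended dispersion against chi-square with 2 degrees of freedom, on the 10434 genes whose counts reached 10 in all 3 libraries, with Benjamini-Hochberg adjustment over all of them. The code was tested on simulated data. Named genes were all 52 repair genes, the 23 pairs, and, of the other lists, the 3 genes with the most CPM, a choice that also carries gene length, and every repair gene under 1 CPM in some library, except some that are not reported here; PMS1, RIF1 and RAD23B were also named for their distance, and genes beside repair genes for their position, after their values were seen. The repair genes, lists and pairs were chosen with earlier results of these data known. Alternatives were DESeq2 1.42.0 size factors and dispersions, other pseudocounts and filters, and leaving out each library.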

Additional observations from a re-analysis of the deposited data

How the results depend on the processing

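The number of repair genes at 1 CPM or more in every library was 47, and it was 44 to 49 at 0.5 or 2 CPM, with DESeq2 size factors, or without any replicate in turn. For all genes more variable than the trend, the count of 2 became 5 with DESeq2 size factors and ranged from 0 to 6 without replicate 1, 2 or 3. For the repair genes it stayed 0 under every alternative run, with a smallest adjusted p of 0.517 to 0.997. The end joining over recombination difference of 1.11 became 1.18 with means in place of medians, 1.25 with TP53BP1 in end joining and 0.36 when genes under 10 counts in some library were dropped. The excision difference of 0.75 became 0.33, and the mismatch repair difference of 2.39 became 1.64, under that filter, and the latter became 1.81 with means. These genes with few reads are mostly in recombination, so the filter raises that median by its construction. Other pseudocounts, DESeq2 size factors and moving the Fanconi anaemia genes into recombination moved each difference by less than its SD, as did means for the excision difference. The count of recombination and Fanconi anaemia genes lowest in replicate 3, a count whose alternatives were chosen after seeing the data, was also 14 of 17 with DESeq2 size factors. Single libraries set the mean level of genes with few reads. XRCC1 went from 2.47 to 1.29 CPM without replicate 2, XRCC2 from 1.01 to 0.605 CPM without replicate 2, OGG1 from 1.43 to 0.905 CPM without replicate 1, and XRCC3 from 0.180 to 0.270 CPM without replicate 2 and to 0.0594 CPM without replicate 3. The log2 ratio of RAD51C over XRCC3, 5.48, was 7.00 at a pseudocount of 0.1 and 4.67 at 1. No paired analysis was possible because the series has 1 group. With few reads, the levels of XRCC3, XRCC2, OGG1, RAD54L and ERCC2 are limited by depth.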
